A study of Thermothelomyces thermophilus ATCC 42464 with 8 samples.

Results

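The 6 genes described here, MYCTH_80312, MYCTH_46583, MYCTH_85556, MYCTH_110651, MYCTH_2299721 and MYCTH_112089, are those that the study of the filamentous fungus Myceliophthora thermophila placed in auxiliary activity family 9 (AA9), the lytic polysaccharide monooxygenases. They were chosen from the study's heatmap of genes upregulated against the starting strain JG207 and found by gene ID, 6 of the 9110 genes counted in all 8 libraries. All 6 passed the filter on low counts that left 8335 genes for testing. Since that heatmap was drawn from contrasts with JG207 in these same libraries, values against JG207 chose the genes, and they are given below as a description, with no test. The deposited tables gave a description for 0 of the 6 genes, so the family was taken from the study's label and which other AA9 genes were left out of the heatmap was not analysed here.

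RNA was sequenced from 2 libraries of each of 4 strains, and every strain carried the overexpressed malate transporter gene Aomae and pyruvate carboxylase gene Aopyc of JG207. DF1501 lacked Mtxyl1, the d-xylose reductase gene, and carried added Mtxyd1, xylD, BxxylX and KsaD. DF1406 lacked Mtxyl1 and carried added Mtxyd1, xylD, xylX and xylA. DF1102 lacked Mtxyl1 with no added gene, and JG207 was the starting strain with Mtxyl1 intact. The added genes encode steps of the Weimberg pathway, which oxidises d-xylose to a citric acid cycle intermediate. They were present in several copies, with Mtxyd1 and xylD under the strong constitutive promoters Ptef and Pgpda. Mycelium came from a culture of 24 h on 2% glucose, and its RNA was taken 4 h after transfer to medium with 1% d-xylose (45 °C, 150 rpm). Each genotype is a single strain. Whether its libraries were separate cultures was not given in the sources used here. A p-value sets the difference between strains against the spread between libraries of the same strain, pooled over the 4 strains. In edgeR the estimate of that spread also borrowed from the other tested genes. The spread between libraries may be technical.

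AA9 enzymes are secreted, copper-dependent monooxygenases of fungi. A pair of histidines holds the copper ion in a flat active site, and the enzyme cleaves chains of cellulose, and for some members of hemicellulose, by oxidation at the crystalline surface where glycoside hydrolases (GH) act slowly. The new chain ends can then be used by cellobiohydrolases, which is why the genes are usually studied beside the cellulases. The copper must be reduced by a small molecule or by cellobiose dehydrogenase, a secreted flavocytochrome built of an AA8 and an AA3 domain. Filamentous ascomycetes often hold large AA9 families, and the substrate of one member cannot be read from the family name alone.

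The libraries held 20727346 to 21408353 counts in genes. The deleted gene Mtxyl1 stood at 102 to 412 RPKM (reads per kilobase of gene, scaled by the counted reads of the library) in the libraries of the deletion strains and at 1676 and 1773 RPKM in JG207, so it was lower in each library labelled as deleted but not at 0. Its mean level still stood above 94.4% of all genes in DF1501, 88.4% in DF1406 and 97.3% in DF1102. Against DF1102 its log2 fold change was -0.73 in DF1501 and -1.85 in DF1406. The libraries of DF1501 stood further apart than those of the other strains. The root mean square difference between its libraries was 0.404 on the log2 CPM scale over the tested genes, where CPM is the counts of a gene scaled by library size and TMM factor, against 0.273 to 0.310 in the other strains. Calls that leaving out a library of DF1501 changed are therefore given below with that value.

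The summed level of the 6 genes was highest in DF1102, lower in DF1406 and DF1501, and lowest in JG207. It reached 94.9 and 60.2 RPKM in DF1501, 118 and 104 RPKM in DF1406, 136 and 143 RPKM in DF1102, and 32.8 and 30.9 RPKM in JG207. The mean was 77.6 ± 24.6 RPKM in DF1501, 111 ± 10.2 in DF1406, 139 ± 4.88 in DF1102 and 31.9 ± 1.34 in JG207 (SD, n = 2 each). No library of one strain overlapped the range of another in this sum. The order of the strains was in part favoured by how the genes were chosen, and it was not tested. The genes were a small part of each library: 2239 and 1411 counts in DF1501, 2792 and 2498 in DF1406, 3269 and 3385 in DF1102, and 773 and 741 in JG207, which is at most 0.0162% of the counts of a library. In whole mycelium, fewer cells that transcribe a gene and less RNA per cell cannot be told apart.

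**Figure D1:**
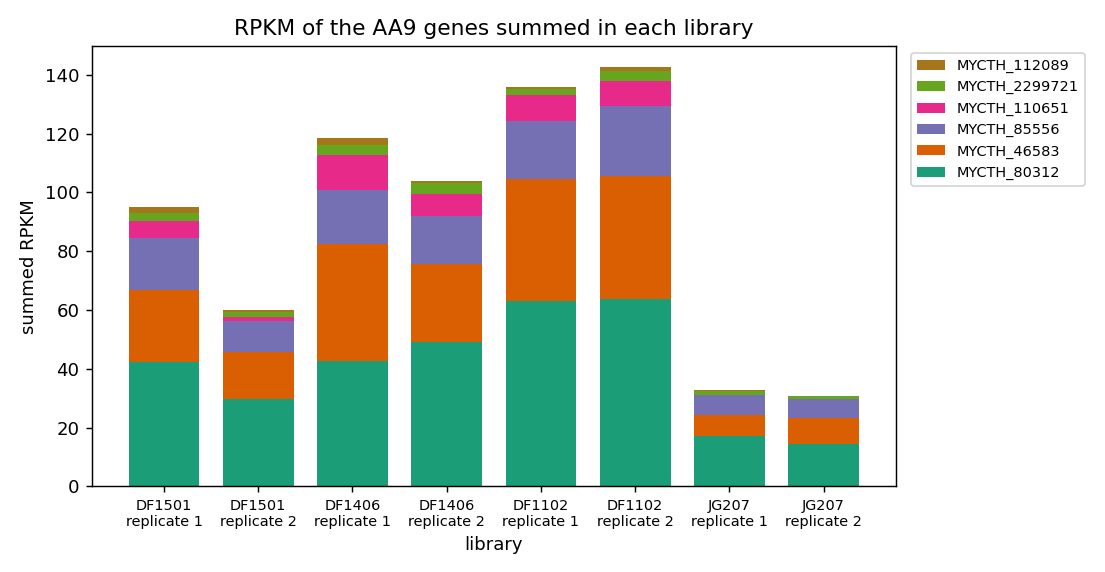
Stacked bars give the RPKM of the 6 AA9 genes summed in each of the 8 libraries, with a colour for each gene. The bars stand at 60.2 and 94.9 RPKM in DF1501, 104 and 118 in DF1406, 136 and 143 in DF1102 and 30.9 and 32.8 in JG207, and MYCTH_80312 is the largest segment of every bar.

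Most of this sum in every library came from 3 members: MYCTH_80312, MYCTH_46583 and MYCTH_85556, in that order. Together they gave 85.0% to 95.7% of the summed RPKM, and MYCTH_80312 alone gave 36.1% to 52.1%. The order of the lower members was not the same in every strain. MYCTH_110651 came before MYCTH_2299721 and MYCTH_112089 in DF1501 replicate 1 and in both libraries of DF1406 and DF1102, and after MYCTH_2299721 in DF1501 replicate 2 and both libraries of JG207. Neighbours in the order overlapped in DF1501 for MYCTH_46583 and MYCTH_85556, for MYCTH_110651 and MYCTH_2299721, and for MYCTH_2299721 and MYCTH_112089. In JG207 they overlapped for MYCTH_112089 and MYCTH_110651, and in DF1406 and DF1102 the ranges of no neighbours overlapped.

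MYCTH_80312 was the most abundant AA9 gene. Its level was 42.2 and 29.9 RPKM in DF1501, 42.8 and 49.1 RPKM in DF1406, 63.0 and 63.8 RPKM in DF1102, and 17.1 and 14.4 RPKM in JG207. Both libraries of DF1102 lay above those of every other strain, and both of JG207 lay below. Averaged over its libraries, the gene stood above 66.9% of all genes in DF1501, 74.1% in DF1406, 79.7% in DF1102 and 45.6% in JG207. Its log2 fold change against JG207 was 1.19 in DF1501, 1.60 in DF1406 and 2.00 in DF1102 (standard errors 0.20, 0.20 and 0.20). Between the deletion strains it was lower in DF1501 than in DF1102, with a log2 fold change of -0.81 (95% interval -1.24 to -0.37, standard error 0.19, edgeR adjusted p = 0.0122). The DF1102 libraries took part in choosing the gene, which favours a lower value in a strain set against them.

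MYCTH_46583 was the second of the abundant members. Its level was 24.4 and 15.7 RPKM in DF1501, 39.6 and 26.6 RPKM in DF1406, 41.4 and 41.6 RPKM in DF1102, and 7.32 and 8.72 RPKM in JG207. The DF1102 libraries were nearly equal, while those of DF1501 and DF1406 each had a clearly lower replicate 2. The gene stood above 51.3% of all genes in DF1501, 66.3% in DF1406, 70.6% in DF1102 and 31.9% in JG207. Its log2 fold change against JG207 was 1.33 in DF1501, 2.10 in DF1406 and 2.37 in DF1102. It was lower in DF1501 than in DF1102, with a log2 fold change of -1.04 (95% interval -1.58 to -0.51, standard error 0.24, edgeR adjusted p = 0.0101). The same limit from the choice of genes holds here as for MYCTH_80312.

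MYCTH_85556 followed the same ranking of strains by mean level. It stood at 18.0 and 10.5 RPKM in DF1501, 18.4 and 16.4 RPKM in DF1406, 19.8 and 24.1 RPKM in DF1102, and 6.58 and 6.41 RPKM in JG207. DF1501 replicate 1 lay within the range of DF1406, DF1501 replicate 2 lay below both, and the JG207 libraries were lowest. Its log2 fold change against JG207 was 1.14 in DF1501, 1.48 in DF1406 and 1.75 in DF1102. Against DF1102 the value in DF1501 was -0.62 (standard error 0.25, 95% interval -1.17 to -0.06, edgeR adjusted p = 0.0799), which did not pass. Without DF1501 replicate 1 it was -1.11 (edgeR adjusted p = 0.00246) and was called, and without DF1501 replicate 2 it was -0.24 (edgeR adjusted p = 0.351). Filtered limma also called it, at an adjusted p of 0.0476 on log2(RPKM + 1) and 0.0471 on log2(RPKM + 0.1), within a range of 0.00246 to 0.351 over all alternatives.

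MYCTH_110651 had the widest range of the 6 genes, 6.06 on the log2 CPM scale between its highest and its lowest library, where the others spanned 1.71 to 3.72. It stood at 5.53 and 1.44 RPKM in DF1501, 11.9 and 7.47 RPKM in DF1406, 8.85 and 8.51 RPKM in DF1102, and 0.108 and 0.140 RPKM in JG207. In counts these were 154 and 40 in DF1501, 332 and 210 in DF1406, 250 and 238 in DF1102, and 3 and 4 in JG207. The JG207 libraries were thus close to the limit of detection, and those of DF1501 differed 3.83-fold from each other. The ratio of depth-scaled counts to JG207 was 28.2 in DF1501 (95% counting interval 13.4 to 71.0), 78.1 in DF1406 (37.6 to 195) and 70.0 in DF1102 (33.7 to 175). These intervals cover counting error only, and reads without molecular identifiers need not be independent molecules. Its share of the summed AA9 RPKM was 2.40% to 10.1% in the libraries of the deletion strains, and 0.328% and 0.453% in JG207.

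The fitted log2 fold change of MYCTH_110651 was the furthest below 0 of the 6 genes in DF1501 against either other deletion strain, but with wide intervals. It was -1.30 against DF1102 (standard error 0.47, 95% interval -2.36 to -0.24, edgeR adjusted p = 0.0586) and -1.52 against DF1406 (standard error 0.47, 95% interval -2.57 to -0.46, edgeR adjusted p = 0.0976). Neither passed the adjusted threshold of 0.05. Without DF1501 replicate 1 the adjusted p of MYCTH_110651 was 4.9e-04 against DF1102 and 0.00116 against DF1406, and without DF1501 replicate 2 the log2 fold change was -0.60 against DF1102 and -0.82 against DF1406. Over all alternatives the adjusted p ranged between 4.9e-04 and 0.182 against DF1102 and between 0.00116 and 0.350 against DF1406.

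MYCTH_2299721 was a gene of low level that differed least from strain to strain. It stood at 2.76 and 1.82 RPKM in DF1501, 3.57 and 3.46 RPKM in DF1406, 2.19 and 3.20 RPKM in DF1102, and 1.45 and 1.10 RPKM in JG207. Its highest libraries were those of DF1406, which did not overlap DF1501, DF1102 or JG207. Its fold against JG207 was 1.79 in DF1501, 2.86 in DF1406 and 2.10 in DF1102. It thus lay just above the study's minimum of 2 in DF1102, the nearest of the 6 to that minimum, and below it in DF1501.

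MYCTH_112089 had the lowest mean level of the 6 in each deletion strain. It stood at 1.98 and 0.779 RPKM in DF1501, 2.32 and 0.960 RPKM in DF1406, 0.573 and 1.45 RPKM in DF1102, and 0.242 and 0.0943 RPKM in JG207, the last from 5 and 2 counts. The ranges of the deletion strains overlapped one another, and all lay above JG207. The ratio of depth-scaled counts to JG207 was 8.28 in DF1501 (95% counting interval 3.77 to 21.5), 9.80 in DF1406 (4.51 to 25.3) and 6.03 in DF1102 (2.68 to 15.9). At this depth the gene could not order the deletion strains: between them its largest log2 difference was 0.75, in DF1406 against DF1102 (95% interval -0.60 to 2.11, edgeR adjusted p = 0.397).

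**Figure D2:**
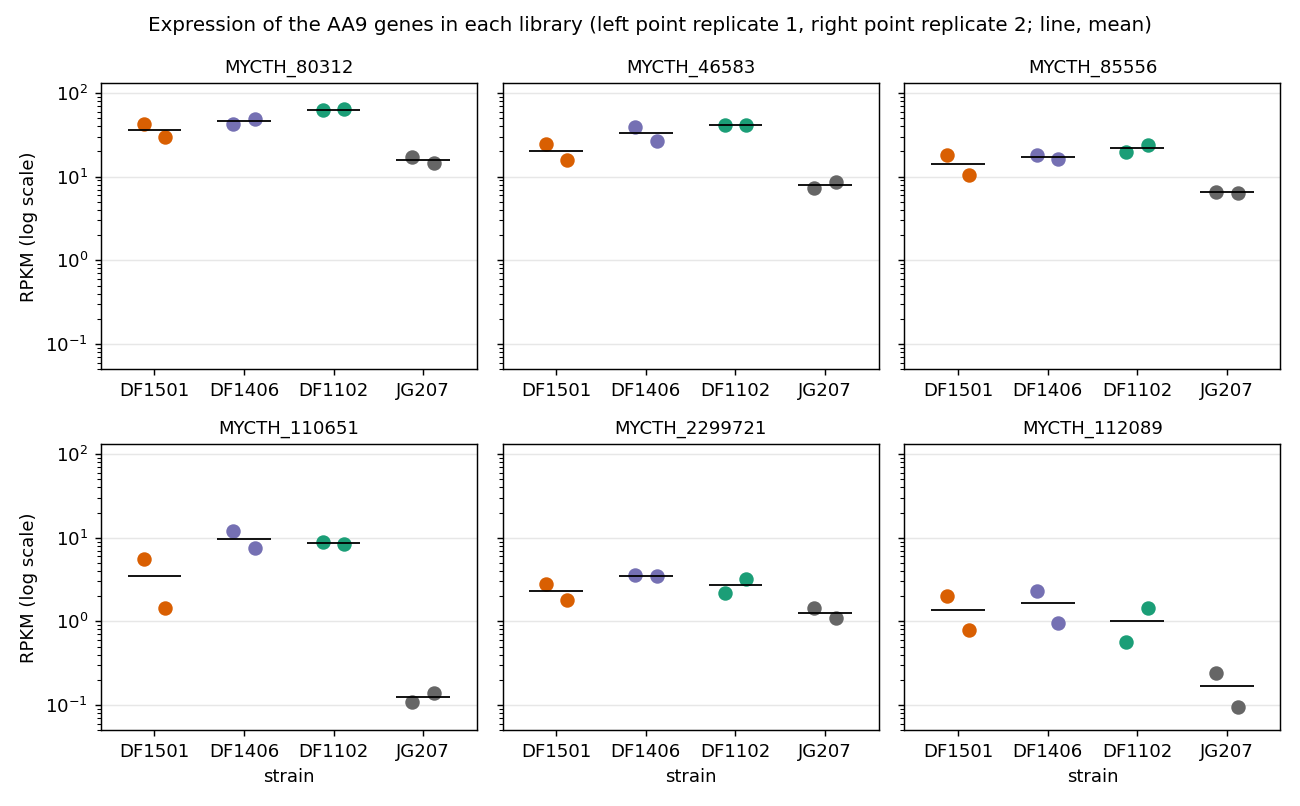
Each panel gives the RPKM of an AA9 gene on a log scale by strain, with a point for each of the 2 libraries (left replicate 1, right replicate 2) and a line at their mean. JG207 is lowest in every panel, MYCTH_110651 falls to 0.108 and 0.140 RPKM there, and the points of DF1501 are spread from 5.53 to 1.44 RPKM for the same gene.

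By the rule that chose the genes, both libraries of a deletion strain lay above both of JG207 for 6 of the 6 genes in DF1501, in DF1406 and in DF1102. Of all tested genes, 30.2% did so in DF1501, 28.7% in DF1406 and 39.0% in DF1102. A fold of at least 2 was held by 5 of the 6 in DF1501, where 5.45% of all tested genes reached it, by 6 in DF1406, where 7.59% did, and by 6 in DF1102, where 10.5% did. The same JG207 libraries stand in all of these comparisons, and nothing is read from the counts, since the genes were selected on them.

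Whether the added pathways went with a different AA9 level was asked by setting DF1501 and DF1406 against DF1102. These comparisons were not those of the rule, but the DF1102 libraries took part in choosing the genes and stand in both. The libraries of DF1501 and DF1406 may have taken part too. A choice on high values in DF1102 favours lower values in a strain set against it. In DF1501 against DF1102, 2 of the 6 genes were called lower and 0 higher in edgeR, at adjusted p values up to 0.05 and folds from 1.5 upward, where 8.24% of all tested genes were called lower and 13.1% higher. The genes called were MYCTH_46583 and MYCTH_80312. The median log2 fold change of the 6 was -0.71, beside 0.00 over all tested genes. Both libraries of DF1501 lay below both of DF1102 in RPKM for 4 of the 6, namely these and MYCTH_110651 and MYCTH_85556, and 34.3% of all tested genes did so. MYCTH_2299721, with a log2 fold change of -0.23 (95% interval -0.92 to 0.45), and MYCTH_112089, with 0.46 (95% interval -0.94 to 1.85), overlapped between the strains.

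This count changed when a library of DF1102 or DF1501 was left out, and so did the calls over all tested genes. The calls of MYCTH_46583 and MYCTH_80312 were both lost when either library of DF1102 was left out. Without DF1102 replicate 1 the median log2 fold change of the 6 was -0.80, and without DF1102 replicate 2 it was -0.615. It was -1.12 without DF1501 replicate 1 and -0.39 without DF1501 replicate 2. Over all tested genes the median lay between -0.01 and 0.004 in these fits. Without DF1501 replicate 2, MYCTH_46583 had a log2 fold change of -0.72, and MYCTH_80312, at -0.54, no longer reached 1.5-fold. Over all alternatives the log2 fold change ranged from -1.45 to -0.72 for MYCTH_46583 (adjusted p 2.4e-04 to 0.0595) and from -1.14 to -0.54 for MYCTH_80312 (adjusted p 9.8e-04 to 0.0707), so both stayed below 0.

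In DF1406 against DF1102, 0 of the 6 genes were called, where 7.81% of all tested genes were called higher and 4.32% lower. With library size alone as scaling, 50.6% of the genes called in this comparison were higher, against 64.4% with TMM factors. The count of AA9 genes at an unadjusted p under 0.05 was also 0 in edgeR, and DESeq2 and limma called 0. The abundant members had log2 fold changes of -0.40 for MYCTH_80312 (95% interval -0.83 to 0.03), -0.27 for MYCTH_46583 (-0.79 to 0.25) and -0.28 for MYCTH_85556 (-0.82 to 0.27). The low members had values of 0.44 for MYCTH_2299721 (-0.21 to 1.10), 0.75 for MYCTH_112089 (-0.60 to 2.11) and 0.22 for MYCTH_110651 (-0.77 to 1.20). The intervals of all 6 included 0. Those of the abundant members reached past 1.5-fold below 0 but not above it. Those of the low members reached past 1.5-fold above 0, and for MYCTH_112089 and MYCTH_110651 also past 1.5-fold below 0. With only the 4 libraries compared in the fit, MYCTH_80312 had an edgeR adjusted p of 0.0257 but stayed under 1.5-fold (over all alternatives 0.0257 to 0.497). Both libraries of DF1406 lay below both of DF1102 in RPKM for the 3 abundant members, where 40.5% of all tested genes did so, and above them for MYCTH_2299721, where 28.5% did.

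DF1501 and DF1406 carry different enzymes for the lower pathway, and setting one against the other used no library of JG207 or DF1102. The study's upregulated genes were those of DF1102, DF1406 and DF1501 against JG207. Libraries of both strains may thus have taken part in choosing the 6 genes, so this comparison is not free of that choice. In DF1501 against DF1406, 0 of the 6 genes were called in edgeR, where 1.96% of all tested genes were called higher and 1.84% lower. With library size alone, 64.0% of the genes called here were higher, against 51.6% with TMM factors. At an unadjusted p under 0.05, 3 of the 6 had lower values, as did 11.2% of all tested genes. DESeq2 called 1 lower (MYCTH_46583, adjusted p = 0.0239, over all alternatives 0.0102 to 0.389), where it called 2.95% of those genes lower, and limma called 0. Without DF1501 replicate 1 edgeR called 4 lower, where it called 5.12% of all tested genes lower. All 6 fitted values lay below 0, with a median of -0.54 beside 0.01 over all tested genes. Besides MYCTH_110651 they were -0.77 for MYCTH_46583 (95% interval -1.31 to -0.24), -0.41 for MYCTH_80312 (-0.84 to 0.03), -0.34 for MYCTH_85556 (-0.90 to 0.22), -0.68 for MYCTH_2299721 (-1.34 to -0.01) and -0.30 for MYCTH_112089 (-1.59 to 1.00). Both libraries of DF1501 lay below both of DF1406 for 4 of the 6, all but MYCTH_85556 and MYCTH_112089, and 19.1% of all tested genes did so.

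**Figure D3:**
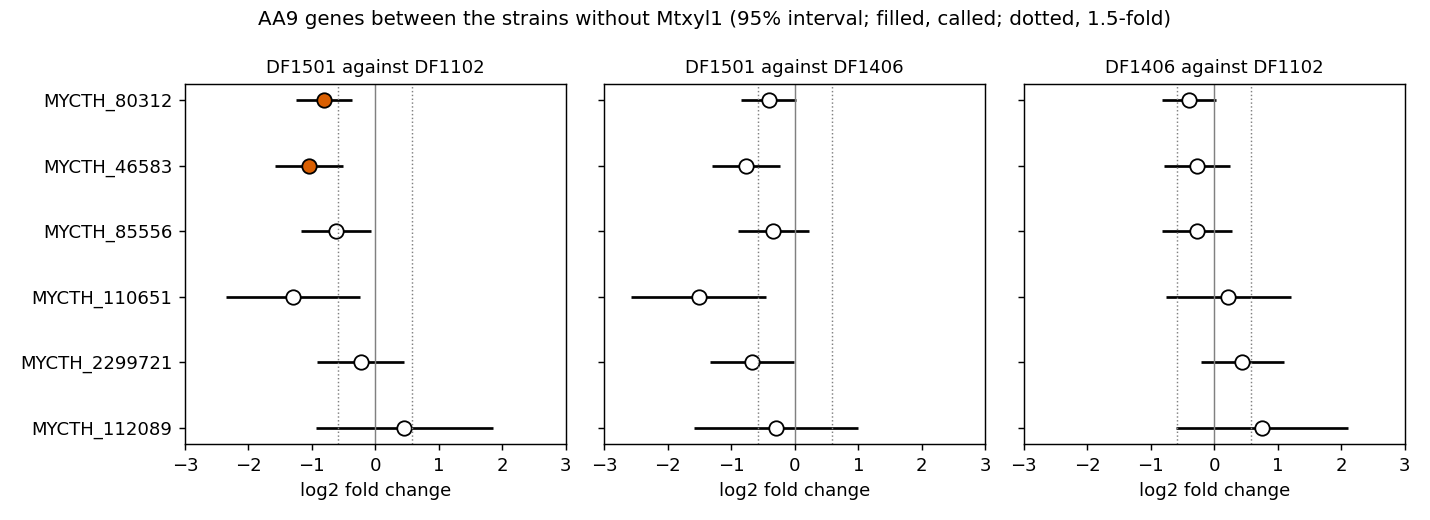
Points give the edgeR log2 fold change of each AA9 gene in DF1501 against DF1102, DF1501 against DF1406 and DF1406 against DF1102, with 95% intervals, and dotted lines mark 1.5-fold. The only filled points, those called, are MYCTH_80312 at -0.81 and MYCTH_46583 at -1.04 in DF1501 against DF1102, and all 6 points lie below 0 in DF1501 against DF1406.

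The spread within DF1501 ran in one direction for this gene group. Replicate 2 of DF1501 was lower than replicate 1 for 6 of the 6 AA9 genes, by 3.83-fold in RPKM for MYCTH_110651, 2.55-fold for MYCTH_112089, 1.70-fold for MYCTH_85556, 1.56-fold for MYCTH_46583, 1.52-fold for MYCTH_2299721 and 1.42-fold for MYCTH_80312. The median difference was -0.80 on the log2 CPM scale. Replicate 2 was also lower for 40 of the 45 GH genes of the heatmap, with a median of -0.60, and for 16 of its 16 xylan-active GH genes, with a median of -1.18. Over all tested genes it was lower for 49.7%. In the other strains replicate 2 was lower for 5 of the 6 AA9 genes in DF1406, 1 in DF1102 and 4 in JG207, with medians of -0.33, 0.19 and -0.25. The part of this library difference in the comparisons of DF1501 was not tested beyond leaving out each library.

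**Figure D4:**
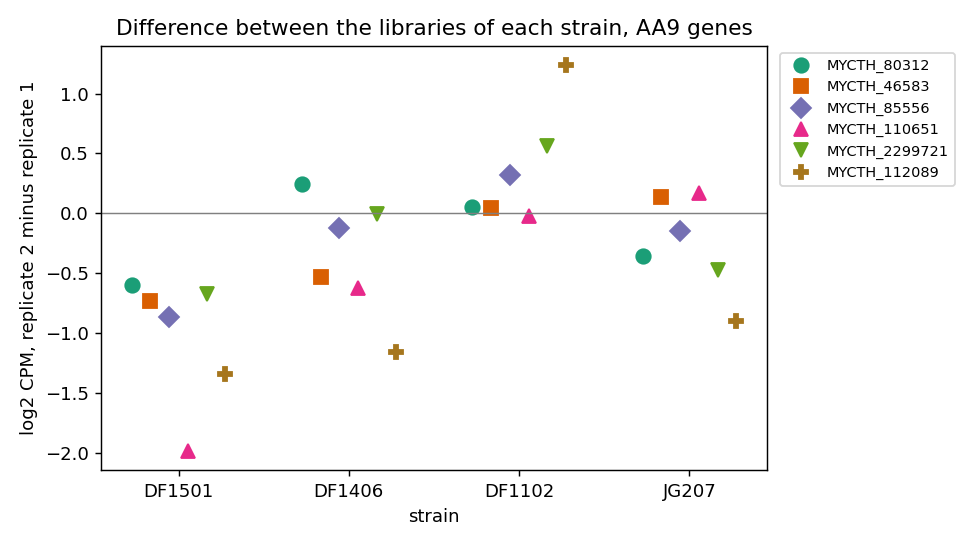
Points give the log2 CPM of replicate 2 minus that of replicate 1 for each AA9 gene within each strain, and the line marks 0. All 6 points of DF1501 lie below 0, with a median of -0.80, while those of DF1102 have a median of 0.19 and lie above 0 for 5 genes.

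The other auxiliary activity genes of the heatmap were MYCTH_81925, with AA8 and AA3 domains as in cellobiose dehydrogenase, an electron donor of AA9 enzymes, and MYCTH_2313229 of family AA13, which acts on starch. MYCTH_81925 stood at 17.0 and 17.8 RPKM in DF1501, 30.0 and 22.7 RPKM in DF1406, 29.3 and 33.1 RPKM in DF1102, and 5.33 and 5.19 RPKM in JG207. Like the abundant AA9 genes, it had its highest mean in DF1102, and its DF1501 libraries differed little from each other. It fell in DF1501 against DF1102, where the log2 value was -0.84 (edgeR adjusted p = 0.00276, standard error 0.14), and against DF1406, where it was -0.66 (edgeR adjusted p = 0.0343, standard error 0.14). The call against DF1102 was kept without either library of DF1501. This gene too was chosen by the study in these same libraries, and so is no independent evidence of a direction. The call against DF1406 was lost without DF1501 replicate 2 (edgeR adjusted p = 0.0910), without either library of DF1406 (0.187 and 0.0702) or of DF1102 (0.0665 and 0.0670), in limma and with only the 4 libraries compared. MYCTH_2313229 stood at 2.42 and 1.73 RPKM in DF1501, 3.86 and 2.86 RPKM in DF1406, 2.50 and 3.11 RPKM in DF1102, and 0.546 and 0.874 RPKM in JG207, and was called in no comparison between deletion strains.

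The GH genes of the heatmap, chosen by the study in these same libraries and so no independent evidence of a direction, had no gene called higher in DF1501 against the other deletion strains with all libraries. The median log2 fold change of the 45 in DF1501 against DF1102 was -0.62. Of them, 19 were called lower and 0 higher, where 8.24% of all tested genes were called lower and 13.1% higher. The 19 held 6 of the 11 from families active on cellulose and 4 of the 16 from families active on xylan. Without DF1501 replicate 1 the median was -1.03, and without DF1501 replicate 2 it was -0.335. It was -0.65 without DF1102 replicate 1 and -0.61 without DF1102 replicate 2. In DF1501 against DF1406, 11 of 45 were called lower and 0 higher, where 1.84% of all tested genes were called lower and 1.96% higher. The median was -0.65, and it was -1.21 without DF1501 replicate 1 and -0.475 without DF1501 replicate 2. Without DF1406 replicate 1 it was -0.625, and without DF1406 replicate 2 it was -0.69. Fewer genes were called lower in these fits, among the GH genes and over all tested genes, except without DF1501 replicate 1, where more were. Most of the calls against DF1406 were lost when either library of DF1406 was left out. In DF1406 against DF1102, 2 were called higher and 4 lower, where 7.81% of all tested genes were called higher and 4.32% lower. The median there was -0.01. The AA9 share of 2 in 6 was not tested against that of the GH genes.

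Among the regulators in the heatmap, clr-1 (MYCTH_2298863) was called lower in DF1501 against DF1102. Its counterpart in Neurospora crassa is a transcription factor needed for growth on cellulose. The log2 value was -0.73 (edgeR adjusted p = 0.00510, standard error 0.14), where 8.24% of all tested genes were called lower. The call was kept without either library of DF1501. The regulators too were chosen by the study in these same libraries, and so are no independent evidence of a direction. The other 3 regulators, clr-2, clr-4 and xyr-1, were called in 0 comparisons between deletion strains. In DF1406 against DF1102, clr-1 had a log2 fold change of -0.50 (edgeR adjusted p = 0.0350), under the 1.5-fold minimum.

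The shape of each gene's profile was compared over the 8 libraries by the root mean square difference of log2 CPM after each gene was centred on its own mean. Within the group, MYCTH_85556 and MYCTH_80312 were the most alike pair, at 0.170, and both lay near MYCTH_46583, at 0.304 and 0.298. MYCTH_110651 was the member furthest from the others, at 1.43 to 1.83. Its centred values in the JG207 libraries were -3.85 and -3.68, from 3 and 4 counts. Among all tested genes its profile was most like those of MYCTH_2299856, at 0.314, MYCTH_89603, at 0.369, and MYCTH_2299886, at 0.383. MYCTH_89603 is a GH11 xylanase gene of the heatmap, and its mean level was 6138 RPKM, far above that of any AA9 gene.

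For MYCTH_112089 the nearest profiles were those of MYCTH_2128390, at 0.436, and MYCTH_109566, a GH7 gene of the heatmap, at 0.502. The nearest profiles of MYCTH_85556 were MYCTH_2308426, at 0.0903, and MYCTH_2305422, at 0.113. The last was also among the 3 profiles nearest to MYCTH_80312, which MYCTH_2301747 led, at 0.121. MYCTH_46583 was nearest to MYCTH_66729, at 0.149, and MYCTH_2299721 to MYCTH_2307982, at 0.145. These distances are a description over 8 libraries that share strains and depth. The JG207 libraries are among them, and the members and the GH genes of the heatmap were chosen by their difference from JG207. Likeness between these genes is therefore in part a result of that choice.

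No AA9 gene of the group was next to another in the genome. Of the 12 protein-coding genes next to them in the RefSeq annotation of assembly ASM22609v1, 0 were members and 10 were tested. This set was chosen after the data had been seen. In DF1102 against JG207, 3 of the 10 were called higher and 1 lower, at a fold of at least 2, where 10.2% of all tested genes were called higher and 11.1% lower. The neighbour of MYCTH_46583, MYCTH_2301624, stood at 25.1 and 19.4 RPKM in DF1501, 22.7 and 31.1 RPKM in DF1406, 35.0 and 29.8 RPKM in DF1102, and 4.01 and 3.12 RPKM in JG207. Its log2 fold change in DF1102 against JG207 was 3.17 (edgeR adjusted p = 2.2e-05, standard error 0.26). The others called higher were MYCTH_58125, beside MYCTH_85556, with 2.66 (edgeR adjusted p = 1.3e-04), and MYCTH_2305345, beside MYCTH_80312, with 1.03 (edgeR adjusted p = 9.9e-05). The other neighbour of MYCTH_80312, MYCTH_2305349, was called lower, with -1.35 (edgeR adjusted p = 9.3e-05). Whether strand was used in counting was not given in the sources used here, so reads that overlap a neighbour on the other strand could not be told apart.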

How the data were processed

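RNA-seq of 8 libraries was analysed, 2 from each of 4 strains, grouped by the strain names in the labels. The authors cleaned reads with SOAPnuke, aligned them to the genome by TopHat2 2.0.12, and by HTSeq 0.13.5 assigned to each gene the reads found in no other. Gene counts entered the fit as deposited, apart from 3 rows without a gene ID below one column, which hold totals and other values and were left out, and 0 columns were left unused. The RPKM values, as deposited by the authors, gave the levels and the limma alternatives.

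Counts were fitted in edgeR 4.0.16 under R 4.3.3 by quasi-likelihood, with TMM factors of 0.954 to 1.05, a mean per strain over all 8 libraries and the default filter with a minimum count of 10. Benjamini-Hochberg adjustment ran over the 8335 genes tested. A call needed an adjusted p no larger than 0.05 together with a minimum fold, 2 against JG207 and 1.5 between deletion strains. With 4 strain means there were 4 residual degrees of freedom, and libraries held 20727346 to 21408353 counts. The fit added 5.16 prior degrees of freedom, estimated over all tested genes, in the p-values and intervals. Standard errors are the log2 fold change divided by the root of the F statistic, and 95% intervals follow from them.

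The named genes are the 6 members, those of the study's AA and regulator lists that bear on them, and the genes nearest to each member in profile. The members and lists were chosen with earlier results of these data known. A search for the wider AA9 family and for promoter motifs was planned and not done, since no product names or genome were used here.

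Alternatives were DESeq2 1.42.0, RLE factors or library size alone, no filter, a minimum of 10 counts per library throughout, only the 4 libraries compared, a replicate block, calls with no minimum on the fold, limma 3.58.1 on log2(RPKM + 0.1) and, filtered or not, on log2(RPKM + 1), and leaving out each library. Levels were computed in Python 3.11.15 with pandas 2.3.3 and scipy 1.17.1, and figures drawn with matplotlib 3.10.9.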

Additional observations from a re-analysis of the deposited data

How the results depend on the processing

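The number of AA9 genes called in DF1501 against DF1102 was 2. It became 4 with filtered limma on log2(RPKM + 1) and 4 on log2(RPKM + 0.1), and was 2 with limma on log2(RPKM + 1) without the filter. It was 3 with library size alone, where 696 of all tested genes were called lower, against 687 with TMM factors. The share of all tested genes that limma called is not given here. When a library was left out, the number called in DF1501 against DF1102 could rise or fall. It rose without DF1501 replicate 1 and fell without DF1501 replicate 2. No AA9 gene stayed called there when either library of DF1102 was left out. With a library left out, the median log2 fold change of the 6 lay between -1.12 and -0.39 in DF1501 against DF1102. In DF1501 against DF1406 it lay between -1.12 and -0.25. The number called in DF1501 against DF1406 was 0 with all libraries and became 1 with DESeq2. In DF1406 against DF1102 it was 0 under each alternative tried. The median log2 fold change against JG207, a description, moved to 1.78 in DF1102 and 1.39 in DF1406 with limma on log2(RPKM + 1), filtered or not. When a library was left out it lay between 0.91 and 1.58 in DF1501, 1.78 and 1.96 in DF1406 and 1.84 and 2.26 in DF1102. The cause of these changes was not tested.

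A few single genes changed sign when a library was left out, and none of the values of changed sign was called. Of the ranges below, only that of MYCTH_85556 holds a called value, -0.84 without DF1501 replicate 1 (edgeR adjusted p = 0.0249, over all alternatives 0.0249 to 0.954). MYCTH_110651 in DF1406 against DF1102 lay between -0.13 and 0.51, with -0.13 without DF1406 replicate 1. In DF1501 against DF1102, MYCTH_112089 lay between -0.42 and 1.29, with -0.08 without DF1102 replicate 1 and -0.42 without DF1501 replicate 1, and MYCTH_2299721 lay between -0.61 and 0.088, with 0.088 without DF1102 replicate 2 and 0.08 without DF1501 replicate 2. In DF1501 against DF1406, MYCTH_112089 lay between -1.18 and 0.44, with 0.44 without DF1406 replicate 1 and 0.26 without DF1501 replicate 2, and MYCTH_85556 lay between -0.84 and 0.031, with 0.031 without DF1501 replicate 2.

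The replicate numbers share no batch in the labels, and correlations of same-numbered libraries' deviations lay between -0.223 and 0.169. With a replicate block 3 AA9 genes were called in DF1501 against DF1102, where MYCTH_110651 was added at -1.45 (edgeR adjusted p = 0.0243, over all alternatives 4.9e-04 to 0.182). With the block 689 of all tested genes were called lower in that comparison, against 687 without it. MYCTH_110651 and MYCTH_112089 held 7 counts each over the JG207 libraries, so counting error limits their folds.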
